A study of Homo sapiens with 4 samples.

Results

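AKAP12 and 9 further genes of protein kinase A (PKA) were examined in Hep G2, a human hepatocellular carcinoma line. The 10 genes were AKAP12, 6 other A-kinase anchoring proteins (AKAP1, AKAP8, AKAP9, AKAP10, AKAP11 and AKAP13), the regulatory subunit PRKAR1A and the catalytic subunits PRKACA and PRKACB. AKAP12 was chosen by its fall in the comparison described here, and the others were chosen by name as its family and its kinase. All 10 were found among the 62655 gene IDs of the count table and all 10 passed the filter on low counts. Because the choice of AKAP12 used this contrast, its difference is given as a description and supports nothing.

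Every library came from cells plated at 150000 per ml, made steatotic with medium rich in oleic acid from 24 h after plating, transfected with HiPerFect 24 h later and harvested after a further 24 h. The 2 mimic libraries received an oligonucleotide copy of LysTTT-5'tRF, a fragment from the 5' end of a lysine tRNA, and the 2 control libraries received a negative control oligonucleotide. Neither an untransfected group nor a group without oleic acid was analysed here, so both groups carry the lipid load and the transfection. The headings of the control columns abbreviate negative control, whereas the mimic columns are headed by an unexplained number and were identified by elimination. If that reading were wrong, the directions below would have no meaning.

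Poly(A) RNA was sequenced, and reads counted to genes ranged from 15430539 to 18961222 per library, with between 23.1% and 24.1% of each library's total counted to no gene. The labels do not say whether the replicates of a group were separate cultures, so the spread between them may be technical. All 8 hepatocyte markers, 3 of 7 fibroblast and stellate cell markers, 2 of 4 endothelial markers and 0 of 4 leukocyte markers had a mean above 1 CPM (counts per 1000000 reads of the scaled library) over the 4 libraries. The fibroblast and stellate cell markers COL1A2, DCN and LUM, the endothelial marker KDR and the leukocyte markers PTPRC and CD3E were at 0 reads, which allows up to 3 reads over the 4 libraries, for counting error only. PDGFRB (14.4 to 19.0 CPM), ACTA2 (12.4 to 15.2 CPM), COL1A1 (2.88 to 3.97 CPM), PECAM1 (7.58 to 8.68 CPM), CDH5 (0.892 to 1.81 CPM) and VWF (0.416 to 1.17 CPM) were detected in every library. In bulk RNA, fewer cells that express a gene and less of its RNA per cell cannot be told apart.

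PKA is held inactive by regulatory subunits that bind its catalytic subunits. The messenger cAMP, made by adenylyl cyclases and degraded by phosphodiesterases, binds the regulatory subunits and frees the catalytic ones, which phosphorylate targets that include the transcription factor CREB. Anchoring proteins bind the regulatory subunits and hold the kinase at particular sites in the cell. In liver this pathway is best known for carrying the glucagon signal to glucose production. AKAP12, also called gravin, is a large scaffold near the plasma membrane that binds PKA, protein kinase C and calmodulin.

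RefSeq lists 3 start sites for AKAP12, and the deposited count pools the transcripts from all of them. The 200 bases that lie 250 to 51 bases before each start are shown because this is the upstream sequence of the gene that the results turn on; they hold no annotated exon base. They are from RefSeq's GRCh38.p14 promoters, 5' to 3', with CG dinucleotides in capitals.
AKAP12 start 1, chr6:151239717-151239916, plus strand: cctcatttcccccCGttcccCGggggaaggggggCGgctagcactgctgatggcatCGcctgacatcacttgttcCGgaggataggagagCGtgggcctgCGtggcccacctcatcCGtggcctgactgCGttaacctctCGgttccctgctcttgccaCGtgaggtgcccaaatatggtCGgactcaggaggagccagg
AKAP12 start 2, chr6:151325281-151325480, plus strand: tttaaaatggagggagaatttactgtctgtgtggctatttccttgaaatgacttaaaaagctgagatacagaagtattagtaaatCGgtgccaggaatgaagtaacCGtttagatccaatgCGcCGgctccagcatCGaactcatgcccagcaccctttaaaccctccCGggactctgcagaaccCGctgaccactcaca
AKAP12 start 3, chr6:151341456-151341655, plus strand: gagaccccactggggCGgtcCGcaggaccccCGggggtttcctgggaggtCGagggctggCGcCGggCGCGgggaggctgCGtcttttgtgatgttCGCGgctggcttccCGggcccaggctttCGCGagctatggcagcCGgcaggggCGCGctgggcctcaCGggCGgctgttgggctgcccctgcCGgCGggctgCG
The 3 windows differ in base composition. The first holds 12 CG dinucleotides with 63.5% GC, the second 7 with 46.5% GC, and the third 22 with 75.5% GC. Over 35116 promoters cut in the same way the median was 8 CG dinucleotides, with quartiles of 2 and 17, so only the third window lies above the upper quartile. The cAMP response element TGACGTCA, searched on both strands in the 250 bases before each start, was in none of the 3 AKAP12 windows, and neither was its shorter core TGACG, which lies within it. Over all promoters 1.65% held the full element and 21.2% the core. Of 25 promoters of the 10 genes, 1 held the full element, at a start of PRKAR1A, and 9 (36%) held the core, in 6 of the 10 genes. Windows of a gene can overlap, and a pair of AKAP1 windows among the 9 share the same site. These matches describe letters and not binding.

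AKAP12 (ENSG00000131016) lies on the plus strand of chromosome 6, at 151239967 to 151358559 in GRCh38.p14. In GENCODE v29, an annotation of GRCh38 used for lengths and overlaps, its exons cover 8.741 kb and share no base with the exons of another gene on either strand. None of its 8688 distinct transcript pieces of 50 bases occurred in a transcript of another gene. In GENCODE v29, therefore, no overlap or shared piece of this length bears on its count. The release used for counting is not given in the sources used here, and other releases were not checked.

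AKAP12 was lower in both mimic libraries than in both control libraries. Mimic libraries 1 and 2 had 567 and 623 CPM, and control libraries 1 and 2 had 732 and 866 CPM, from 8688, 11702, 12312 and 13943 reads. The groups do not overlap, mimic library 1 is the lowest and control library 2 the highest, and the controls lie farther apart than the nearest libraries of the 2 groups. The gap was 134 CPM within the control, 109 CPM between the nearest mimic and control libraries and 55.5 CPM within the mimic. The error from counting alone was between 0.847% and 1.07% of each library's value and does not include the spread between libraries.

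Group means of AKAP12 were 595 ± 39.3 CPM in the mimic and 799 ± 94.6 CPM in the control (SD, n = 2 each). The fitted log2 fold change of AKAP12 was -0.42 ± 0.06 (SE), with a 95% interval of -0.54 to -0.30, and the control was 1.34-fold higher. This SE and interval borrow information on variance from the other genes tested. They can therefore be narrower than the libraries of AKAP12 alone would give. Of 14464 genes tested, 0.346% (50 genes) had a Benjamini-Hochberg adjusted p under 0.05 in the quasi-likelihood test of edgeR and are called here, and 0.0691% (10 genes) were called lower. AKAP12 was among those 10, with the value that chose it, an adjusted p of 9.107e-04. Its fall was the second in size after HAVCR1 at -0.50 and ahead of the long noncoding RNA ENSG00000260604 at -0.41. The call did not hold with DESeq2 (log2 fold change -0.43, adjusted p = 0.146) or when low counts were not filtered (-0.43, adjusted p = 0.754). Over 11 alternative settings the log2 fold change ranged from -0.54 to -0.30, stayed negative in all 11, and was called in 9.

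Along the same libraries the summed level of the 8 hepatocyte markers was 48068 and 47594 CPM in mimic libraries 1 and 2, and 46766 and 44960 CPM in control libraries 1 and 2. This order is the reverse of the order of AKAP12. Of the 8 markers, ALB, AFP, TTR and FGB each had that reversed order, while APOA1, SERPINA1, GPC3 and APOB did not. APOB, the largest part of the sum, lay between 25092 and 25205 CPM. ALB ran from 10192 CPM in mimic library 1 to 7991 CPM in control library 2, and TTR from 79.5 to 63.7 CPM in the same libraries. The 7 fibroblast and stellate cell markers summed to 35.3 and 35.4 CPM in the mimic and 30.3 and 35.2 CPM in the control. The 4 endothelial markers summed to 9.54 and 11.5 CPM in the mimic and 9.99 and 9.31 CPM in the control, and the 4 leukocyte markers stayed under 1 CPM in sum. The part of these markers in the AKAP12 difference was not tested.

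**Figure D1:**
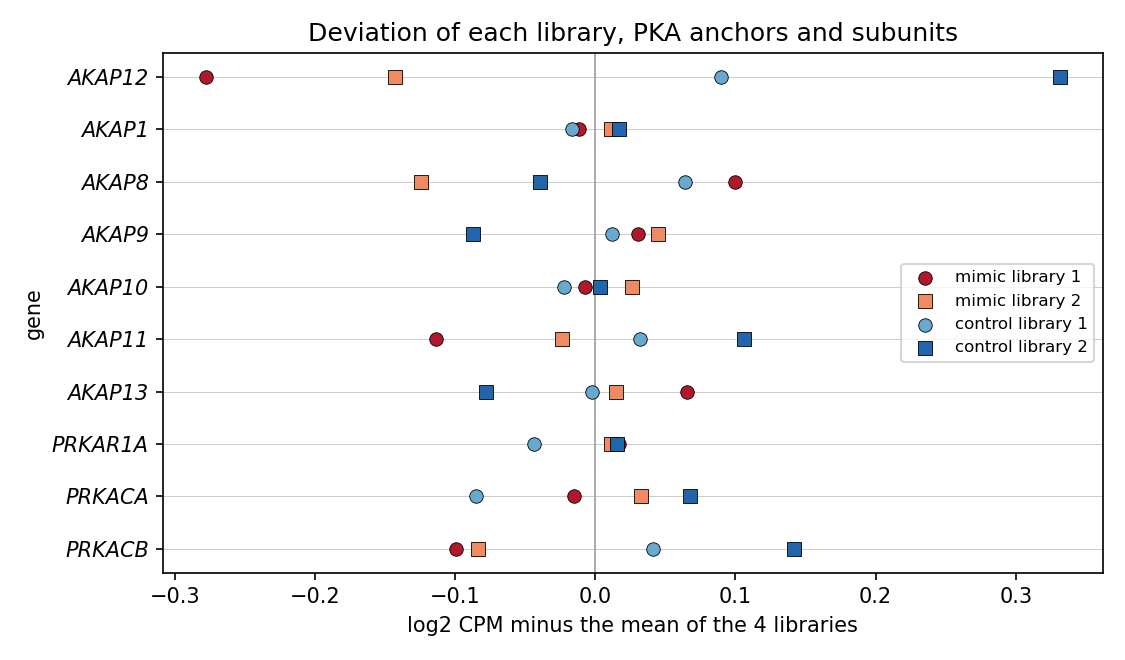
Deviation of each library from the mean of the 4 libraries, in log2 CPM with 0.5 CPM added (x axis), for the 10 genes (y axis); circles are libraries numbered 1, squares libraries numbered 2, red tones mimic and blue tones control. AKAP12 runs from -0.278 in mimic library 1 to 0.331 in control library 2, a wider range than that of any other gene shown.

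None of the other 9 genes was called. Their log2 fold changes lay above 0 for 6 and below 0 for 3, with a median of 0.02, beside a median of 0.00 over all genes tested. No gene of the 9 had an unadjusted p under 0.05, a share that was 9.43% over all genes tested. Limma voom called none of the 9 either, nor did DESeq2 among those for which it gave an adjusted p. The 95% interval held 0 for each of the 9, with bounds between -0.45 and 0.23. The mimic and control libraries did not overlap for 4 of the 9 (AKAP9, AKAP11, AKAP13 and PRKACB), while 39.1% of all genes tested showed no overlap.

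Among the anchors, AKAP1 holds PKA at the outer mitochondrial membrane. Its levels were 180 and 183 CPM in the mimic libraries and 179 and 184 CPM in the control libraries. The log2 fold change of AKAP1 was 0.00, with a 95% interval of -0.11 to 0.11, the narrowest interval around 0 among the anchors. AKAP10, an anchor that binds both types of regulatory subunit, was at 26.3 and 26.9 CPM in the mimic and 26.0 and 26.4 CPM in the control. Its 4 libraries lie close together, with a log2 fold change of 0.02 (95% interval -0.18 to 0.23).

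AKAP9 is the large scaffold of the centrosome and Golgi. It stood at 184 and 186 CPM in the mimic and 182 and 170 CPM in the control, so control library 2 is the low one and the mimic libraries lie just above control library 1. The log2 fold change of AKAP9 was 0.07 (95% interval -0.04 to 0.19). AKAP13, which is also an activator of the small GTPase RhoA, was at 99.99 and 96.5 CPM in the mimic and 95.4 and 90.5 CPM in the control. All 4 libraries of AKAP13 again lie in a narrow range, with a log2 fold change of 0.08 (95% interval -0.05 to 0.21).

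AKAP11, an anchor that also binds glycogen synthase kinase 3 beta and protein phosphatase 1, had the library order of AKAP12, as did PRKACB. Its levels were 56.5 and 60.2 CPM in the mimic and 62.5 and 65.9 CPM in the control. The log2 fold change of AKAP11 was -0.14, and its 95% interval of -0.29 to 0.01 ends just above 0. AKAP8, an anchor of the nuclear matrix, was at 51.3 and 43.8 CPM in the mimic and 50 and 46.5 CPM in the control. For AKAP8 the mimic libraries enclose both controls, and the log2 fold change was -0.03 (95% interval -0.21 to 0.15).

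Of the kinase subunits, PRKAR1A, the type I alpha regulatory subunit, was at 239.8 and 238.8 CPM in the mimic and 229.9 and 239.6 CPM in the control. Its groups overlap, and the log2 fold change was 0.03 (95% interval -0.07 to 0.13). PRKACA, the alpha catalytic subunit, was at 42.8 and 44.2 CPM in the mimic and 40.7 and 45.3 CPM in the control. Here the controls enclose both mimic libraries, with a log2 fold change of 0.02 (95% interval -0.15 to 0.19). PRKACB, the beta catalytic subunit, was at 14.9 and 15.1 CPM in the mimic and 16.5 and 17.7 CPM in the control. PRKACB is the least abundant of the 10 by reads, with a counting error of up to 6.62% per library, and its log2 fold change of -0.19 has the widest interval (95% interval -0.45 to 0.07).

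**Figure D2:**
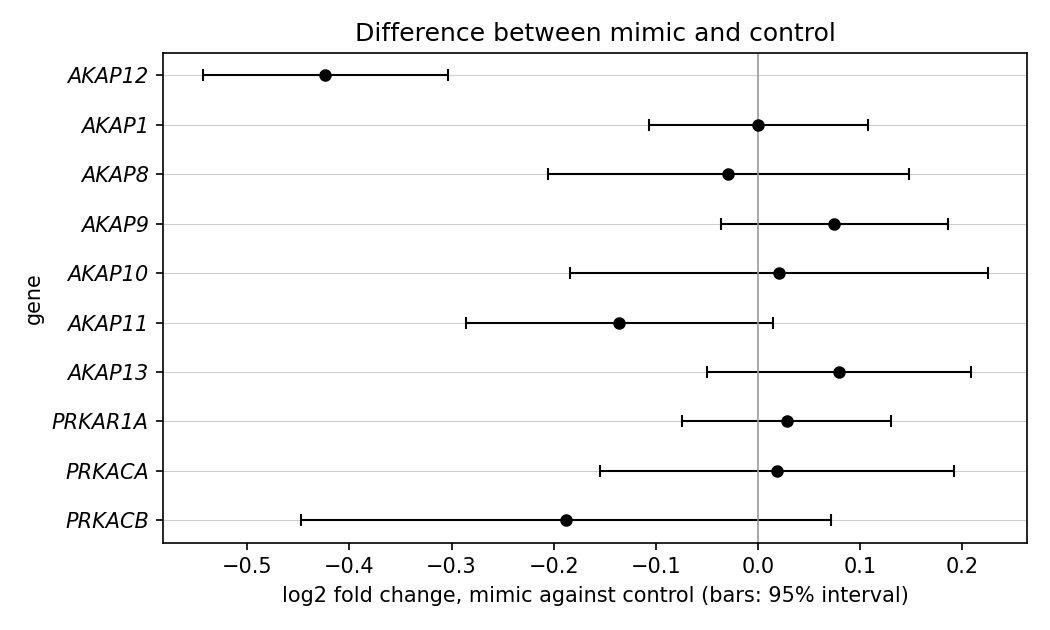
Log2 fold change of the mimic against the control (x axis) for the 10 genes (y axis); points are the fitted values and bars their 95% intervals, from 2 libraries per group. The interval of AKAP12, -0.54 to -0.30, lies below 0, and the intervals of the other 9 genes cross 0. All intervals borrow information on variance across the genes tested.

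The gene models limit some of these counts, since the kit was stranded but whether counting used the strand is not given in the sources used here. In GENCODE v29 the exons of AKAP13 overlap antisense exons over 9.28% of their length, those of AKAP8 over 4% and those of AKAP1 over 2.15%. PRKAR1A shares 8% of its exon length with a same-strand gene and 6.9% of its pieces of 50 bases with transcripts of other genes, the largest shares of both kinds among the 10. PRKACA and its intronless relative PRKACG have only 1 such piece in common, and PRKACB has none with any gene.

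Levels between genes were compared as CPM per kb of exon. AKAP12 had the highest level per length of the 10, at 91.4 ± 10.8 in the control and 68.1 ± 4.49 in the mimic (SD, n = 2 each). PRKAR1A followed in the control at 34.4 ± 1.00 and AKAP1 at 33.6 ± 0.55, and the ranges of these 2 genes over the 4 libraries overlap. AKAP8 was at 11.2 ± 0.58 and AKAP9 at 9.67 ± 0.47, also with overlapping ranges. PRKACA was at 7.0 ± 0.53 and AKAP11 at 6.47 ± 0.24, and these overlap as well. Below them, AKAP10 at 5.41 ± 0.07, AKAP13 at 4.58 ± 0.17 and PRKACB at 2.54 ± 0.13 were each separate from the gene above. AKAP12 stayed the highest in every library, down to 64.9 in mimic library 1. With coding length in place of exon length the control order changed, with PRKAR1A at 205 and AKAP12 next at 149 CPM per kb.

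**Figure D3:**
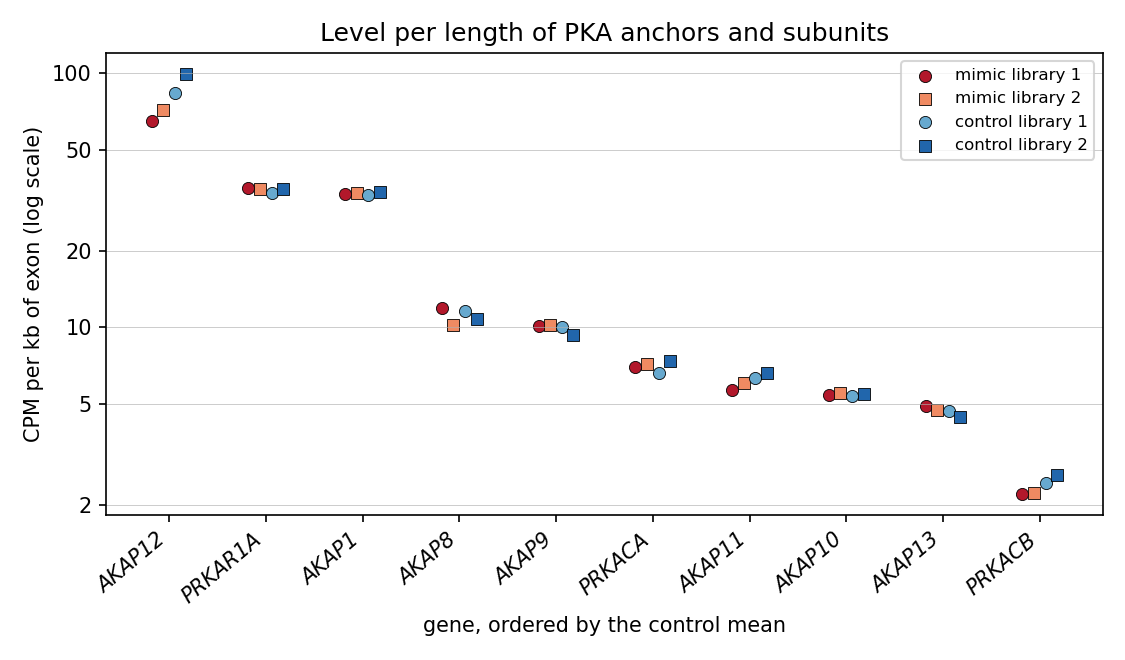
Level of the 10 genes in each library, as CPM per kb of exon on a log axis (y axis), ordered by the control mean (x axis); circles and squares are libraries 1 and 2, red tones mimic and blue tones control. AKAP12 lies between 64.9 and 99.05 and the lowest gene, PRKACB, between 2.21 and 2.63.

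AKAP12 made up a large part of the RNA summed over the 7 anchors among the 10 genes, per kb of exon. Its share was 47.6% and 50.2% in the mimic libraries and 54.0% and 58.3% in the control libraries. This sum leaves out other anchoring proteins, among them EZR at 61.66 and ARFGEF2 at 33.75 CPM per kb in the control. The share is therefore not that of all anchor RNA. The summed level of the 7 anchors was 136 and 142 in the mimic and 155 and 170 in the control. The other 6 of these 7 anchors together were at 71.4 and 70.7 in the mimic and 71.2 and 70.7 in the control. The difference in the sum therefore lies in AKAP12, which was chosen by its fall in this contrast. With coding length the AKAP12 share in the control was 51.4% in place of 56.2%. These sums and ratios were chosen after the data were seen and carry no test.

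**Figure D4:**
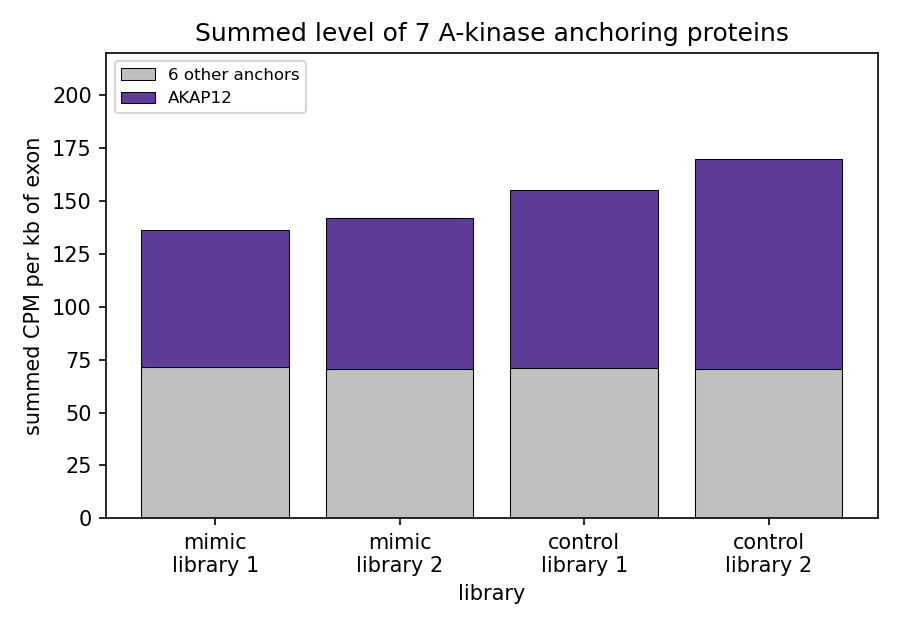
Summed CPM per kb of exon (y axis) of 7 A-kinase anchoring proteins in each library (x axis); the grey part of each bar is the sum of 6 anchors and the purple part is AKAP12. The grey parts lie between 70.7 and 71.4, while the whole bars run from 136 in mimic library 1 to 170 in control library 2.

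Among the kinase subunits, PRKACA exceeded PRKACB per length in every library. The ratio of PRKACA to PRKACB was 3.15 and 3.22 in the mimic and 2.71 and 2.81 in the control. The groups do not overlap, but neither gene was called and the ratio rests on between 228 and 285 reads of PRKACB per library. The summed level of PRKACA and PRKACB over that of PRKAR1A was 0.261 and 0.270 in the mimic and 0.269 and 0.285 in the control. The order of the libraries overlaps between mimic library 2 and control library 1. This ratio leaves out the regulatory subunits PRKAR2A and PRKAR1B, at 17.74 and 8.635 CPM per kb of exon in the control.

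The wider pathway was read from 8 lists of 114 genes, all matched to the table, of which 83 passed the filter. None of the 83 was called in either direction, by edgeR or limma voom, or by DESeq2 where it gave an adjusted p. Of the 83, 48 had a log2 fold change above 0 and 35 below, with a median of 0.04 beside 0.00 over all genes tested. An unadjusted p under 0.05 was found for 11 of the 83 (13.3%, beside 9.43% of all genes), 8 higher and 3 lower. The groups did not overlap for 37 (44.6%, beside 39.1%).

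Of 29 other anchoring proteins, 23 were tested, 15 above 0 and 8 below, with a median of 0.04. PALM2AKAP2, the fusion locus that encodes AKAP2, was at 64.1 and 56.9 CPM in the mimic and 66.7 and 68.1 CPM in the control (log2 fold change -0.16, edgeR adjusted p = 0.513). ACBD3, a Golgi protein that binds PKA, was at 83.5 and 87.4 CPM in the mimic and 77.1 and 78.5 CPM in the control (log2 fold change 0.14, edgeR adjusted p = 0.516). Neither passed the threshold. Among the other PKA subunits and inhibitors 4 of 8 were tested, with 1 above 0 and 3 below and a median of -0.01. PRKAR2A, the type II alpha regulatory subunit that most anchors bind, was at 120 and 118 CPM in the mimic and 113 and 122 CPM in the control. Its groups overlap, with a log2 fold change of 0.01. PRKAR1B, the type I beta regulatory subunit, had a log2 fold change of -0.08 with overlapping groups.

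The genes of cAMP synthesis and breakdown gave no call. Of 20 genes of synthesis and G protein coupling 12 were tested, 7 above 0 and 5 below, with a median of 0.03. GNAI1, an inhibitory G protein subunit, had a log2 fold change of 0.28 (edgeR adjusted p = 0.456), and ADCY6, an adenylyl cyclase, one of -0.19 (edgeR adjusted p = 0.507). Of 16 phosphodiesterases 9 were tested, 5 above 0 and 4 below, with a median of 0.08. PDE3B, which degrades cAMP and is known as an insulin target in hepatocytes and adipocytes, was at 109 and 121 CPM in the mimic and 105 and 100.7 CPM in the control (log2 fold change 0.17, edgeR adjusted p = 0.396). PDE2A had a log2 fold change of -1.29 from only 54 reads in the 4 libraries (edgeR adjusted p = 0.483). Of 5 cAMP effectors other than PKA only RAPGEF4 and BVES were tested, with log2 fold changes of 0.86 and 0.26 at 2 CPM or less in every library.

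Among CREB and its relatives, 10 of 11 genes were tested, 8 above 0 and 2 below, with a median of 0.11. CREBBP, the coactivator that binds phosphorylated CREB, was at 227 and 220 CPM in the mimic and 212 and 190 CPM in the control (log2 fold change 0.15, edgeR adjusted p = 0.37). ATF1, a relative of CREB, had a log2 fold change of 0.24 (edgeR adjusted p = 0.414). Of 12 CREB target genes 10 were tested, 6 above 0 and 4 below, with a median of 0.11. FOS, an immediate early gene, was at 24.6 and 12.9 CPM in the mimic and 17.7 and 7.58 CPM in the control (log2 fold change 0.53, edgeR adjusted p = 0.52). DUSP1, a phosphatase of MAP kinases, was at 76.5 and 65.4 CPM in the mimic and 69.2 and 52.4 CPM in the control (log2 fold change 0.21, edgeR adjusted p = 0.49). In both FOS and DUSP1 the groups overlap, mimic library 1 is the highest and control library 2 the lowest. Without control library 1, a fit that called 2.78% of 15238 genes (424), 5 list genes were called, among them FOS at a log2 fold change of 1.27, DUSP1 at 0.43 and CREBBP at 0.23. Without mimic library 2, a fit that called 0.789% of 15209 genes (120), FOS alone of the lists was called, at 0.95.

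Of 13 binding partners of AKAP12 all 13 were tested, 4 above 0 and 9 below, with a median of -0.02. CALM2, 1 of the genes for calmodulin, was at 390.0 and 390.3 CPM in the mimic and 362 and 368 CPM in the control (log2 fold change 0.10, edgeR adjusted p = 0.513). PPP3CA, a catalytic subunit of calcineurin, had a log2 fold change of 0.12 (edgeR adjusted p = 0.586).

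**Figure D5:**
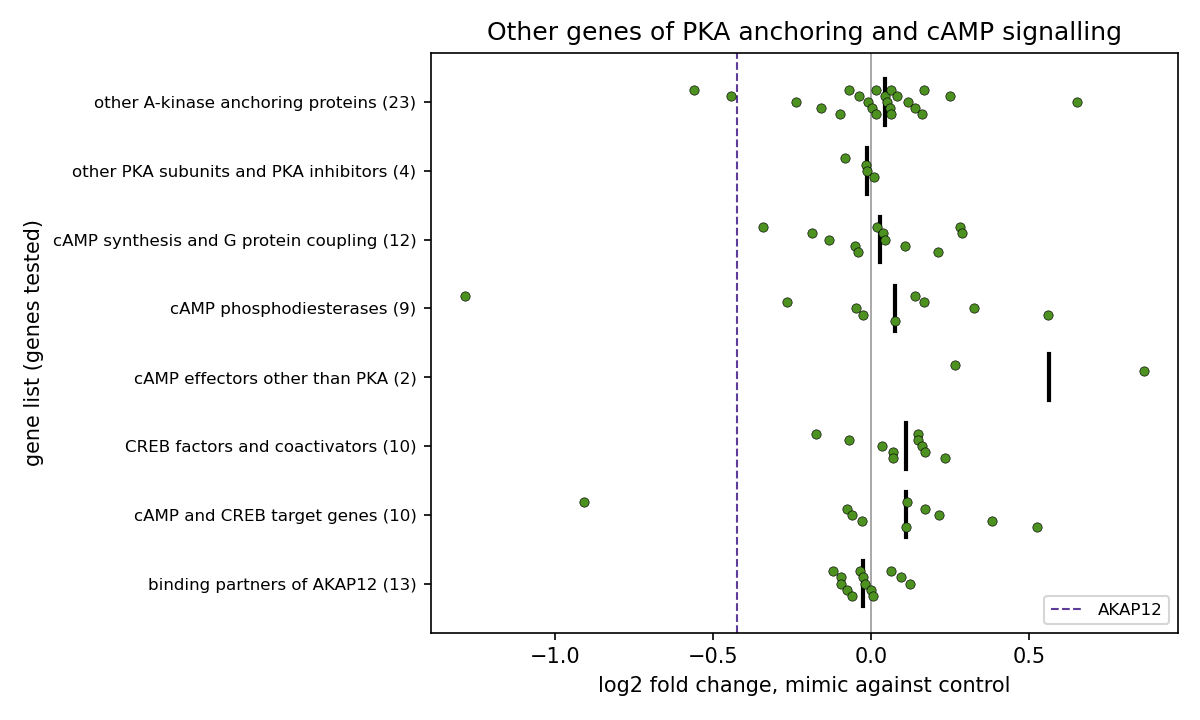
Log2 fold change of the mimic against the control (x axis) for the tested genes of 8 lists (y axis, number tested in brackets); green points are genes, black bars list medians and the dashed line AKAP12 at -0.42. List medians lie between -0.02 and 0.11 except for the cAMP effectors, where 2 genes of low count give 0.56.

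The genes beside AKAP12 on chromosome 6 were read as its neighbours, with distances from GENCODE v29. ZBTB2, a zinc finger factor 5.56 kb after AKAP12, was at 51.4 and 51.5 CPM in the mimic and 51.0 and 48.9 CPM in the control. Its log2 fold change was 0.04 (95% interval -0.12 to 0.20). RMND1, 46.2 kb after, had a log2 fold change of -0.04 (95% interval -0.19 to 0.11), and ARMT1, 93.7 kb after, one of 0.05 (95% interval -0.11 to 0.21). On the other side MTHFD1L, a mitochondrial folate enzyme 138 kb before AKAP12, had a log2 fold change of 0.04 (95% interval -0.09 to 0.16). PLEKHG1, 396 kb before, stayed under 1 CPM in every library, and IYD, 834 kb before, did not pass the filter. All 4 neighbours with a level above 1 CPM had intervals that held 0.

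The genes whose pattern over the 4 libraries was most like that of AKAP12 were named by the Euclidean distance of log2 CPM centred over the libraries, among 4153 genes whose mean reached 50 CPM. They were IGFBP1 at a distance of 0.105, ENSG00000260604 at 0.109, APOL2 at 0.123, SERINC2 at 0.138 and ESPN at 0.165. IGFBP1, a secreted binding protein of insulin-like growth factors, lay at -0.281 and -0.058 in the mimic and 0.062 and 0.277 in the control, against -0.278, -0.143, 0.089 and 0.331 for AKAP12. With a minimum of 10 CPM, which compares 8867 genes, 0 of these 5 stayed among the nearest 5, and with library totals 5 of 5 stayed. With 4 libraries many genes can have a like pattern, and the order within this list is a description.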

How the data were processed

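Poly(A) RNA of 4 Hep G2 libraries was sequenced, 2 per group. The submitters' processing notes name the build GRCh38.p14 and the tools STAR, HTSeq, Bowtie2 and FastQC, with versions, annotation release and strand setting not given in the sources used here. The authors deposited raw counts per Ensembl gene, with no normalization. The 5 summary entries that name no gene, 23.1% to 24.1% of each library's total, were left out of library sizes and tests. Symbols were found for 62590 of 62655 IDs.

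Counts were fitted with edgeR 4.0.16 in R 4.3.3 (filterByExpr with a minimum count of 10 and a minimum total of 15, TMM factors, glmQLFit with legacy = FALSE, glmQLFTest), with Benjamini-Hochberg adjustment over 14464 genes and a threshold of 0.05. The script was tested on simulated data. Intervals of 95% come from the fold change and its SE, the size of the log2 fold change over the square root of F. CPM are per 1000000 reads of the TMM-scaled library. Exon and coding lengths are from GENCODE v29.

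The 10 genes and the 8 lists were chosen with earlier results of these data known. The text names all 10, from each list the called genes or else the 2 with the smallest unadjusted p, the 5 genes of at least 50 CPM nearest to AKAP12 in pattern, and the 3 nearest protein-coding genes on each side of it. Outside this rule, HAVCR1, the receptors and other genes of the closing section, the promoter windows, the comparison of 50-base pieces and the sums and ratios over genes were chosen after the data were seen. Alternatives were DESeq2 1.42.0, limma 3.58.1 voom, RLE factors, library totals, no filter, legacy = TRUE, the column number as a block and leaving out each library.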

Additional observations from a re-analysis of the deposited data

How the results depend on the processing

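edgeR as described called 50 genes. DESeq2 called 30 (with an adjusted p for 5210 genes), and the fit with no filter on low counts called 0, with 1514 of 30342 genes at an unadjusted p under 0.05. RLE factors and library totals called 47 each, legacy = TRUE 48 and limma voom 50. Leaving out 1 library in turn gave between 20 and 424 calls: 20 and 120 when mimic library 1 or 2 was left out, and 424 and 22 for control library 1 or 2. The lone library of a group is then assumed to vary like the other group. The genes of the 8 lists called ranged from 0 to 5 on leaving out a library. With the column number as a replicate block 306 of 14464 genes were called. Of the 83 list genes tested, 2 were called, DUSP1 and FOS. The library 1 minus library 2 differences of the mimic and of the control correlated at 0.0306 over 14464 genes. The numbers were not taken as pairs, although a correlation over all genes cannot show whether single genes vary with the number. None of the 9 genes beside AKAP12 was called in any of the 11 settings where an adjusted p was given. DESeq2 gave no adjusted p for AKAP10 and PRKACB. AKAP12 lost its call with DESeq2 (adjusted p = 0.146) and with no filter (adjusted p = 0.754), and its log2 fold change ranged from -0.54 without control library 1 to -0.30 without control library 2. With coding length the AKAP12 share of the level summed over the 7 anchors in the control was 51.4% in place of 56.2%. The cause of these changes was not tested. PRKACB rests on 228 to 285 reads per library, the fewest of the 10 genes.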

Other observations

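Signals upstream of PKA were also read. GNAS, the stimulatory G protein subunit, was at 1076 and 1093 CPM in the mimic and 1070 in each control library, and ADCY9, an adenylyl cyclase, at 146 and 149 CPM in the mimic and 152 and 151 CPM in the control. Among receptors that raise cAMP, the adenosine receptor ADORA2B was at 11.4 and 12.8 CPM in the mimic and 12.5 and 14.2 CPM in the control. The glucagon receptor GCGR had 8 reads in the 4 libraries together. Of the subunits outside the 10 genes, PRKAR2B had 10 reads and PRKACG 0. These libraries therefore hold little RNA for the glucagon receptor.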
